A study of Mus musculus with 4 samples.

Results

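The nuclear genes of the mitochondrial protein import machinery described here are 10 subunits of the TOM and TIM complexes: Tomm20, Tomm40, Tomm70a, Timm8a1, Timm9, Timm10, Timm13, Timm17a, Timm44 and Timm50. They were chosen by symbol from a list drawn up with their differences in these data in view, and every probe set that the platform annotation assigns to 1 of these symbols alone was taken. This gave 25 probe sets of 45101 on the array, for 10 of 18194 named genes. Because the list was chosen from the values themselves, the counts over the 10 genes are a description and support nothing further.

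Almost all mitochondrial proteins are made in the cytosol and have to be brought across the mitochondrial membranes. The TOM complex is the entry gate of the outer membrane, the small TIM proteins carry hydrophobic cargo across the intermembrane space, and the TIM23 complex passes proteins with a cleavable leader sequence through the inner membrane to a chaperone motor in the matrix. The colonic epithelium is known for its heavy use of mitochondria, since absorptive colonocytes burn butyrate from bacterial fermentation.

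Expression was measured on 4 arrays of colon RNA from male mice, 1 array per group, in 2 pairs. The first pair (the GFP pair) came from H2B-GFP mice, in which a tetracycline-responsive element drives a histone fused to GFP. Both arrays of this pair therefore come from mice given doxycycline for 7 days and then none for 2 days. Sorted crypt epithelial cells that kept the label (GFPhigh, non-proliferating) were set beside those that had diluted it (GFPlow, proliferating). The second pair (the Dox pair) came from isolated crypts of mice with a doxycycline-inducible β-catenin, either untreated (Dox -) or given doxycycline at 2.0 mg/ml in drinking water for 5 days (Dox +), and the labels name no sort for it. The untreated mice had neither the drug nor the induction, so effects of the 2 cannot be told apart. Age, strain, the element that drives the inducible β-catenin and the number of mice behind each array were not found in the sources used here. Since each group is 1 array, no difference has a replicate check, groups were not tested against each other, and precision is limited by having 4 arrays. In such bulk samples, fewer cells of a type and less RNA per cell cannot be told apart.

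All values are log2 expression as deposited, made with GCRMA, a method that models the background from the probe sequences. A floor of 5 was set, below which the background model decides the value. A gene counted as measured in a pair if 1 of its arrays reached the floor, and a gene's value is that of its strongest probe set, the one with the highest mean over the 4 arrays. Differences are GFPlow minus GFPhigh and Dox + minus Dox -, and 2-fold (1 on the log2 scale) was the size counted. Between 37.6% and 38.7% of probe sets reached the floor on an array. All 13 epithelial markers, among them Epcam and Cdx2, were above the floor on all 4 arrays, while 0 genes of the endothelial, smooth muscle and red blood cell lists were above it on any array. Of Ctnnb1, the gene for β-catenin, 3 probe sets differed by -0.11, 0.21 and 0.66 in Dox +. Whether they lie in the part that the transgene holds is not given, so they check nothing. The Wnt readout Axin2 differed by 2.43 and the stem cell receptor Lgr5 by 3.84 (its second probe set was under the floor on all 4 arrays).

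The stretches around the transcription start are shown for the members with a CACGTG hexamer, the E-box bound by Myc family factors, and for Tomm40, which passed 2-fold in Dox + without one. They come from RefSeq, build GRCm38.p6, and all 10 genes were matched by gene ID. Each runs from 250 bases before the start to 50 after it, on the gene's own strand, 5′ to 3′. The windows are chr12:71136626-71136925 (minus strand) for Timm9, chrX:134541621-134541920 (minus) for Timm8a1, chr2:84826771-84827070 (plus) for Timm10, chr8:126945872-126946171 (minus) for Tomm20 and chr7:19715380-19715679 (minus) for Tomm40. Capitals mark the letters searched for on both strands: CACGTG, the NRF1 motif (GCGCA joined to TGCGC), the ETS motif CCGGAAG, and CTTTGAA or CTTTGAT for TCF/LEF.
Timm9: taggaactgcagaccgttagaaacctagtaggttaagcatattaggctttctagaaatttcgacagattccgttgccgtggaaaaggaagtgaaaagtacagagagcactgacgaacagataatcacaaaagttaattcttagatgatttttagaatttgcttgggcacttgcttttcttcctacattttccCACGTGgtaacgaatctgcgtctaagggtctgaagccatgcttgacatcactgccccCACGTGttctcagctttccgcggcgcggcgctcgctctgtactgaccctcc
Timm8a1: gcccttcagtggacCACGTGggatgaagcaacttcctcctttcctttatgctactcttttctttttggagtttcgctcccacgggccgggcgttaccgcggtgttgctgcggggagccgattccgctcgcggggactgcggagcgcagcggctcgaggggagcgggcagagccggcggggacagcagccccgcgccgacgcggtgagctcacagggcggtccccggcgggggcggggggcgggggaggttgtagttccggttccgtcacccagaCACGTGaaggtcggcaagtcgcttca
Timm10: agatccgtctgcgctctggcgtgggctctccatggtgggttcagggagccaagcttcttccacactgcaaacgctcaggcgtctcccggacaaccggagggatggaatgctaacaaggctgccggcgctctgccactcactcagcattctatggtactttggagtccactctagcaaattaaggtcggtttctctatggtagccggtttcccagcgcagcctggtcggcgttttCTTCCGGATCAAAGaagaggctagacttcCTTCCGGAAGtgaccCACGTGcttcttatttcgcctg
Tomm20: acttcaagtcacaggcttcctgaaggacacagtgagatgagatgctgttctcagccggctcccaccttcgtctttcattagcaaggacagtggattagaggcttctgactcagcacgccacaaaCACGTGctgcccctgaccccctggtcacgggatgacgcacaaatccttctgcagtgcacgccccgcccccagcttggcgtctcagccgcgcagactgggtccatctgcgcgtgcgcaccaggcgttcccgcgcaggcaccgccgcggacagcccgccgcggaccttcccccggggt
Tomm40: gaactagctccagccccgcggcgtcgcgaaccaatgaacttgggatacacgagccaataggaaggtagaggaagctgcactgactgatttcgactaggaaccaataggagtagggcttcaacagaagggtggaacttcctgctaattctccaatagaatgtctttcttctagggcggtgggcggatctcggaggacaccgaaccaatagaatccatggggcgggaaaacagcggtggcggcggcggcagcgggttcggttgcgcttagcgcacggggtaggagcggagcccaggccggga

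CACGTG, which reads the same on both strands, stood in 4 of the 10 member windows. Counting from 1 at the 5′ end of the window, where base 251 is the annotated start, it began at bases 193 and 250 for Timm9, at 15 and 275 for Timm8a1, at 279 for Timm10 and at 125 for Tomm20. The same letters occurred in 7.15% of all 32851 windows of this length and in 10.2% of the 10406 windows of genes measured in either pair. In the other import genes they occurred in 1 of 33 windows and in the mitochondrial ribosomal protein genes in 7 of 73. In the respiratory chain genes it was 7 of 64, in the ribosome assembly genes 4 of 30 and in the mitochondrial folding and proteolysis genes 2 of 10. Not every gene of these lists had a window. Those with one were 30 of 36 other import genes, 67 of 76 mitochondrial ribosomal protein genes and 59 of 71 respiratory chain genes. They were 26 of 32 for ribosome assembly and 9 of 11 for folding and proteolysis. The ETS letters stood in the windows of Timm10, 3 times with 2 of the matches overlapping in a palindrome, and of Tomm70a, so in 2 of 10, against 18.6% of measured gene windows and 17 of 33 windows of the other import genes. The TCF/LEF letters stood in Timm10 alone (5.97% of measured gene windows), directly after an ETS match, and the NRF1 letters in 0 of 10 (2.19%). These are matches of letters and do not show that a factor binds there.

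The small TIM genes of the intermembrane space held the member with the largest difference in each pair, Timm8a1 in GFPlow and Timm9 in Dox +. Timm9, which with Timm10 forms the chaperone ring that escorts carrier proteins to the inner membrane, read 6.50 in GFPhigh, 7.10 in GFPlow, 6.95 in Dox - and 10.18 in Dox +. One array thus stood well apart from the other 3, and Dox + was 9.41-fold above Dox - (3.23 on the log2 scale). Among the 9074 genes that reached the floor on both Dox arrays, this was the 4th highest difference. Among all 9537 genes measured in the pair, where some differences are bounds, it ranked 9th. GFPlow was 1.52-fold above GFPhigh (0.60). The value rests on 1 probe set, 1449886_a_at. The second probe set of Timm9, 1428010_at, was under the floor on all 4 arrays (2.99 to 3.53) and differed by -0.02 between Dox + and Dox -.

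Timm10, the partner of Timm9, read 10.58 in GFPhigh, 11.38 in GFPlow, 9.77 in Dox - and 10.78 in Dox +. It was higher on the second array of both pairs, by 0.80 in GFPlow and by 1.01 (2.01-fold) in Dox +, so it lay just at the 2-fold line, and with quantile or loess scaling of the pair it fell short of it (lowest value 0.95). Its 1 probe set gives no second reading.

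Timm8a1 belongs to the other small TIM ring, built with Timm13, and is the mouse counterpart of the gene mutated in human deafness-dystonia syndrome. Its stronger probe set read 9.59 in GFPhigh, 10.89 in GFPlow, 10.35 in Dox - and 11.75 in Dox +. Its other probe set read 8.13, 9.58, 9.22 and 11.04 in the same order. Both readings were more than 2-fold higher in GFPlow (1.31 and 1.45) and in Dox + (1.40 and 1.82), and Timm8a1 was the 1 member past 2-fold in both pairs, as were 2.03% of the 9023 genes measured in both. Its ring partner Timm13 read 12.06, 12.51, 11.21 and 11.73, which gave differences of 0.45 and 0.51, both short of 1.5-fold.

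By their strongest probe sets, the outer membrane members were higher in both comparisons, with larger differences in the Dox pair. Tomm40, the channel of the TOM complex, read 9.65 in GFPhigh, 10.24 in GFPlow, 10.26 in Dox - and 11.39 in Dox +. GFPlow was higher by 0.60 and Dox + by 1.13 (2.19-fold), from 1 probe set.

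Tomm70a is the receptor for precursors that come with cytosolic chaperones, such as the metabolite carriers. Its strongest probe set read 10.11, 10.37, 11.67 and 12.61 in the order GFPhigh, GFPlow, Dox - and Dox +. In the Dox pair all 4 measured probe sets were higher in Dox +, by 0.53 to 0.94, and none reached 2-fold. In the GFP pair the 4 ran from -0.05 to 0.26, so Tomm70a was nearly level there. Its remaining probe set was under the floor on all arrays.

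Tomm20, the receptor for leader sequences, was covered best, with 6 measured probe sets. The strongest read 13.29 in GFPhigh, 13.68 in GFPlow, 13.68 in Dox - and 14.20 in Dox +. All 6 were higher in GFPlow, by 0.11 to 0.90, and all 6 were higher in Dox +, by 0.26 to 1.03. The probe sets thus shared a direction while their sizes differed, and 1 of them, 1423081_a_at, passed 2-fold in Dox + at 2.04-fold.

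**Figure D1:**
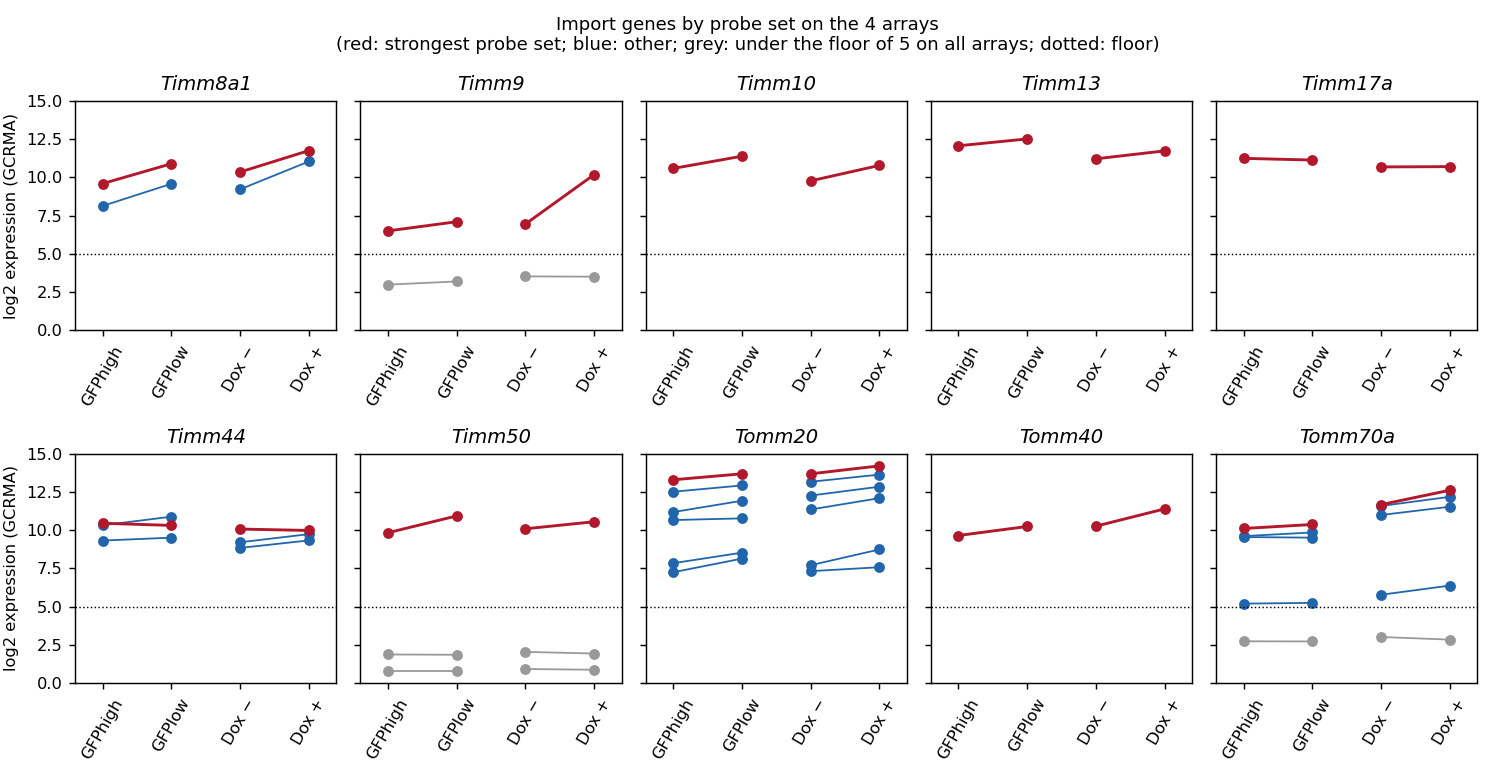
Log2 expression (vertical axis, GCRMA values as deposited) of every probe set of the 10 import genes on the 4 arrays, with a line joining the arrays of a pair and 1 panel per gene. Red marks the strongest probe set of a gene, blue its other measured probe sets, grey those under the floor of 5 on all 4 arrays. Timm9 stands out with 10.18 in Dox + against 6.50 to 7.10 on the other 3 arrays, while the single line of Timm17a is nearly flat in both pairs.

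The inner membrane TIM23 members were the most mixed. Timm50, the receptor that takes over precursors from the TOM complex, read 9.83 in GFPhigh, 10.93 in GFPlow, 10.09 in Dox - and 10.55 in Dox +. It was 2.13-fold higher in GFPlow (1.09) and 1.38-fold higher in Dox + (0.47), the 1 member of 10 whose signed difference was higher in the GFP pair. Its other 2 probe sets were under the floor on all arrays, at 0.82 to 2.05.

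Timm17a, a part of the TIM23 channel, read 11.24, 11.13, 10.68 and 10.70, with differences of -0.11 and 0.03. Its direction in the Dox pair was not settled, since quantile or loess scaling turned it to as low as -0.03.

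Timm44, which tethers the matrix Hsp70 motor to the channel, had 3 probe sets that disagreed. The strongest, 1439371_x_at, read 10.45, 10.31, 10.07 and 9.98, a difference of -0.15 for GFPlow and of -0.09 for Dox +. The other 2 were higher in GFPlow, by 0.18 and 0.57, and in Dox +, by 0.49 and 0.54. Probe sets ending in _x_at hold probes that can match other transcripts. The mean of the 3 was 0.20 for GFPlow and 0.31 for Dox +, so the sign of Timm44 depended on the probe set.

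**Figure D2:**
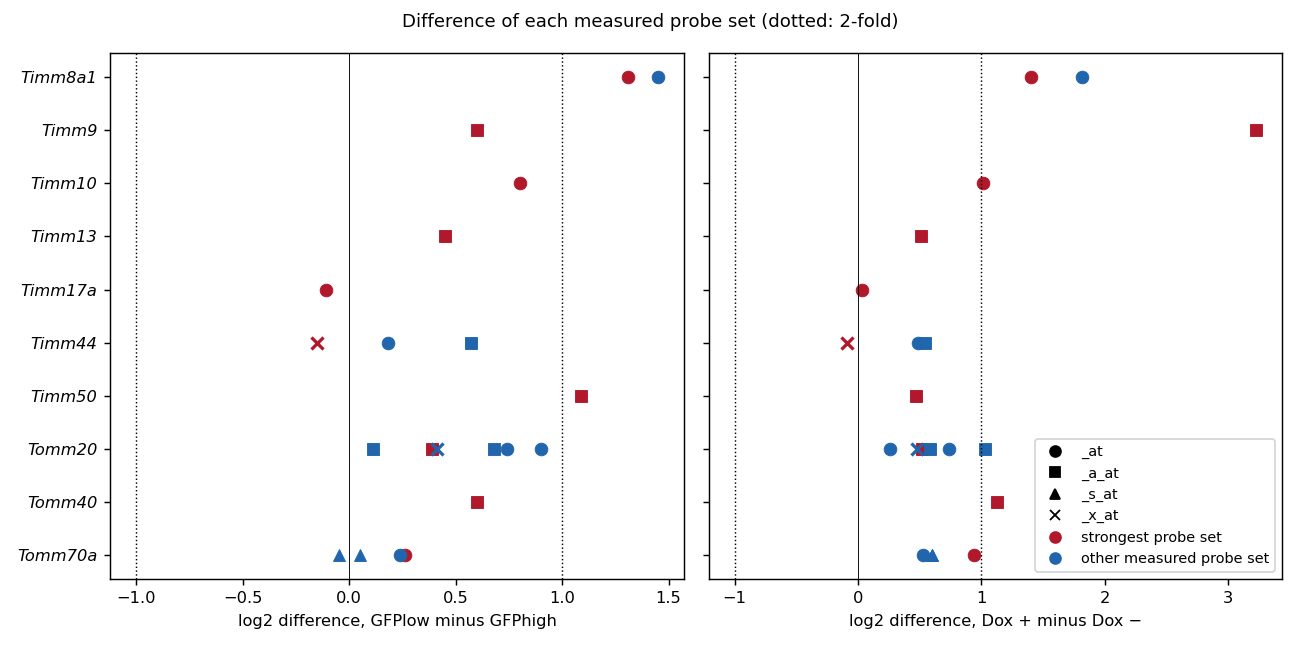
Log2 difference (horizontal axis) of each measured probe set of the 10 import genes, GFPlow minus GFPhigh on the left and Dox + minus Dox - on the right; shapes give the kind of probe set, red the strongest of a gene, dotted lines 2-fold. Both probe sets of Timm8a1 lie beyond 2-fold in both panels, those of Tomm20 spread from 0.26 to 1.03 in the right panel, and the _x_at probe set of Timm44 lies on the other side of 0 from its other 2.

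Counted by gene, 8 of the 10 members were higher in GFPlow, against 53.2% of the 9381 genes measured in that pair, and 2 (Timm8a1 and Timm50) were at least 2-fold higher, against a background of 8.81%. None was 2-fold lower, as were 4.3% of measured genes. The member median was 0.52 (1.44-fold), beside 0.04 for all measured genes. In the Dox pair 9 of 10 were higher in Dox + (8 of 10 with quantile or loess scaling), against 55.0% of 9537 measured genes. There 4 were at least 2-fold higher (Timm9, Timm8a1, Tomm40 and Timm10), against 6.93%, and 0 were 2-fold lower, against 5.35%. The median was 0.73 (1.66-fold), beside 0.06 for all measured genes. By probe set, 18 of the 21 measured were above 0 in GFPlow (51.3% of all measured probe sets) and 20 of 21 in Dox + (56.6%). At least 2-fold higher were 3 of 21 probe sets in GFPlow, against 8.31% of all measured, and 6 of 21 in Dox +, against 7.88%. In both pairs 8 of the 10 genes were above 0, against 37.4% of genes measured in both. The list was drawn up from these values, so nothing is read from these counts beside the background.

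**Figure D3:**
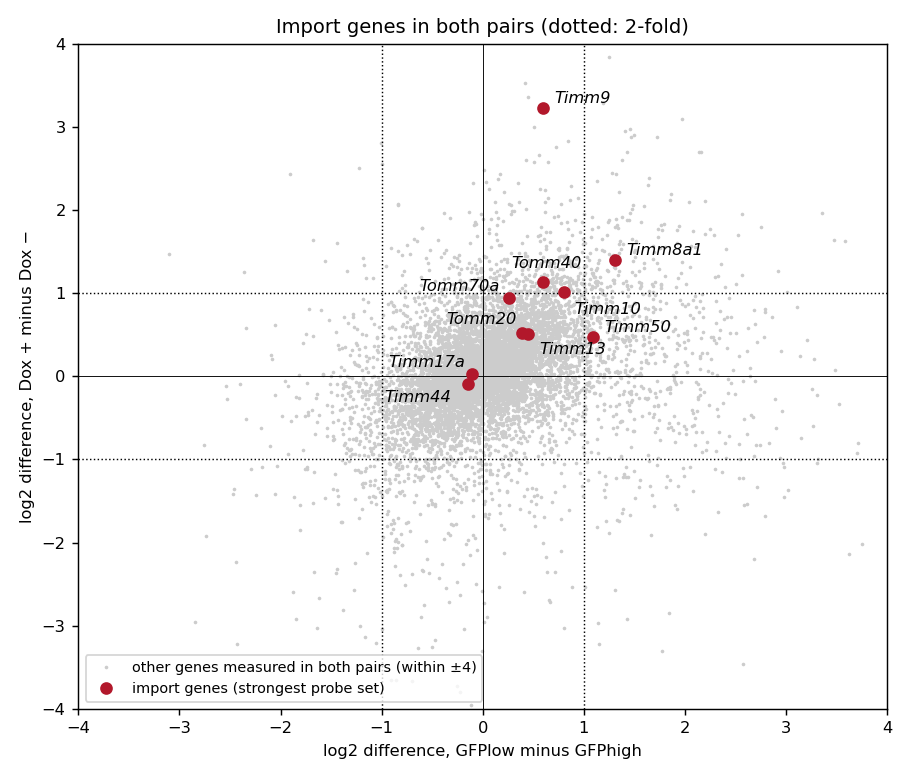
Log2 difference GFPlow minus GFPhigh (horizontal) against Dox + minus Dox - (vertical) for the 10 import genes (red, labelled) and the other genes measured in both pairs (grey; 16 genes beyond 4 on either axis are not drawn); dotted lines mark 2-fold. Timm9 lies at 0.60 and 3.23, Timm8a1 past 2-fold on both axes at 1.31 and 1.40, and Timm17a and Timm44 lie near the origin.

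The rest of the import pathway gives the wider setting. Of 36 other import genes on the array, all measured, 31 were above 0 in GFPlow and 34 in Dox +, with medians of 0.30 and 0.32. Few were large: 2 passed 2-fold in GFPlow and 1 in Dox +, and 0 were 2-fold lower in either pair. The background shares past 2-fold higher were 8.81% and 6.93%. Counts of 2 of 36 and 1 of 36 are too small to be set apart from these shares, and nothing is read from them. Most values lay a little above 0.

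Among the other small TIM and TIM22 genes, 5 of 5 were above 0 in both pairs, with medians of 0.39 and 0.20. Timm22, the channel that inserts the metabolite carriers, had the largest value in both (0.81 and 0.57). The smallest were Timm8b for GFPlow (0.28) and Timm29 for Dox + (0.06). Of 10 other TIM23 and motor genes, 10 were above 0 in GFPlow and 9 in Dox +. Timm21, which links TIM23 to the respiratory chain, read 8.83 in GFPhigh, 9.91 in GFPlow, 8.63 in Dox - and 9.53 in Dox +, so it was past 2-fold in GFPlow (1.09) and just short of it in Dox + (0.90). Hspa9, the matrix Hsp70 that pulls precursors in, differed by 0.58 and, the highest of its list, by 0.91. Timm17b gave the lowest value in both pairs (0.15 and -0.29) by its strongest probe set, 1438656_x_at, while its other probe set gave 0.64 and 1.8.

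The 6 other TOM and outer membrane genes were the exception in the GFP pair, where 2 of 6 were above 0 and the median was -0.12. They ran from Tomm40l (-0.52, with its other probe set at -0.08), a relative of the channel, to Mtch1 (0.34). In the Dox pair 5 of 6 were above 0 with a median of 0.31, from Mtch2 (-0.33), an outer membrane insertase, to the receptor subunit Tomm22 (0.43). The other probe set of Tomm22 was nearly level there (0.02).

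Genes of outer membrane assembly and intermembrane space oxidation had medians of 0.26 and 0.33 over 8 genes. Gfer is the oxidase that with Chchd4 forms disulphide bonds in the small TIM proteins. It read 10.93 in GFPhigh, 11.34 in GFPlow, 9.09 in Dox - and 10.14 in Dox +, where it passed 2-fold (1.05). Its other probe set, 1426995_a_at, fell short of 2-fold there (0.67). The lowest were Dnajc11 for GFPlow (-0.01) and Samm50 for Dox + (0.26), and Mtx1 was highest in the GFP pair (0.41). Genes of leader processing and membrane insertion had medians of 0.36 and 0.33 over 7 genes. Pitrm1, the protease that degrades cleaved leaders, was highest in GFPlow (1.22, with its second probe set at 0.52) and at 0.89 in Dox +, and Pmpca, a subunit of the processing peptidase, was lowest (0.09 and 0.04).

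Of 11 genes of mitochondrial protein folding and proteolysis, 7 were above 0 in GFPlow and 8 in Dox +, with medians of 0.36 and 0.49. The chaperonin subunit Hspe1 was highest in GFPlow (0.95) and the unfoldase Clpx lowest (-0.64). In Dox + the range ran from the protease Htra2 (-0.53) to the protease subunit Afg3l1, the 1 gene past 2-fold (1.03). The other probe set of Htra2, 1460495_s_at, gave 0.09 there, so its sign depended on the probe set.

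Other mitochondrial genes did not share one size of difference. The 76 mitochondrial ribosomal protein genes had medians of 0.40 and 0.44, with 67 above 0 in GFPlow and 66 in Dox +. The 70 measured respiratory chain genes had medians of 0.03 and 0.15 and the 12 citrate cycle genes 0.06 and 0.13, near those of all genes. The 32 genes of cytosolic ribosome assembly had medians of 0.98 and 1.38, with 14 and 22 past 2-fold. The members' medians of 0.52 and 0.73 lay between those of the mitochondrial and the cytosolic ribosome lists. The members were chosen with these differences in view, so their place in this order is not read as a result. The 36 other import genes, with medians of 0.30 and 0.32, lay below the mitochondrial ribosome list. Differences between lists were not tested.

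**Figure D4:**
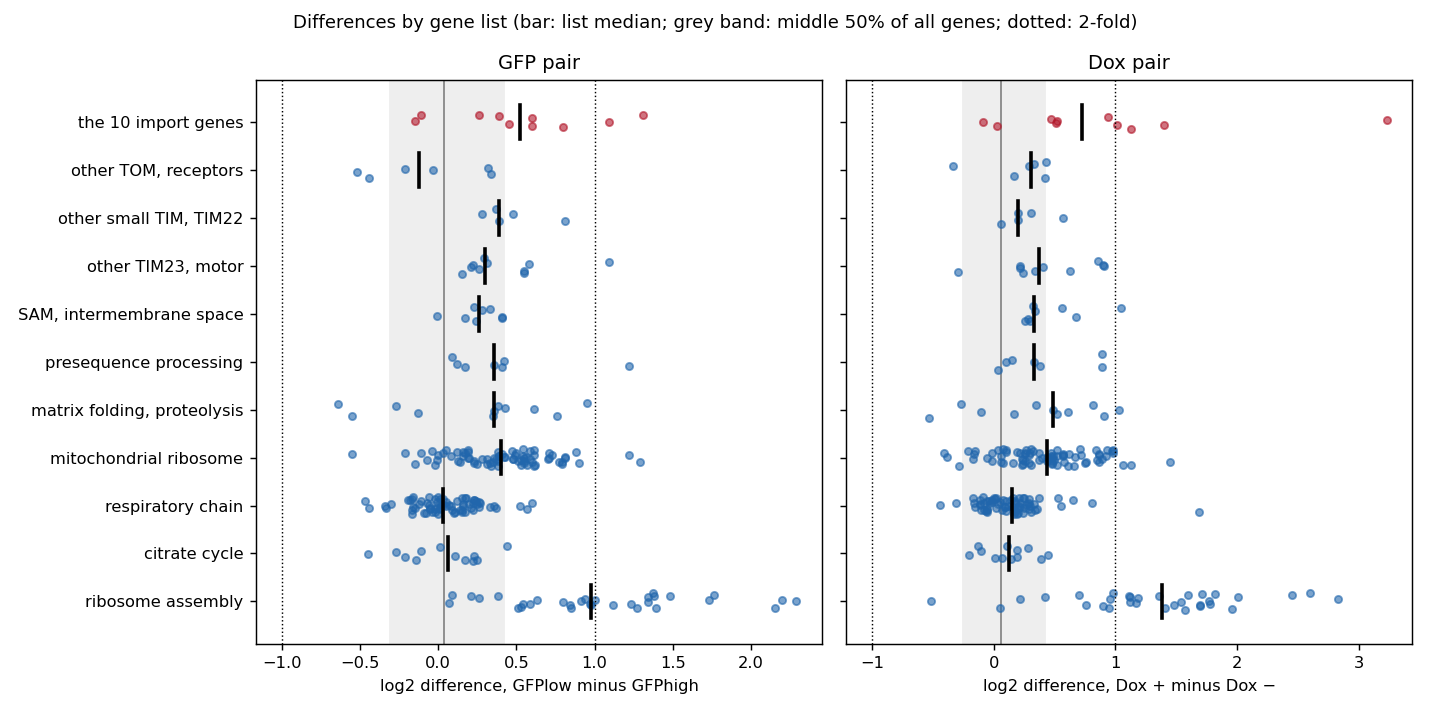
Log2 differences (horizontal axis) of single genes by list, GFPlow minus GFPhigh on the left and Dox + minus Dox - on the right; each dot is a gene, the black bar the list median, the grey band the middle 50% of all measured genes, the grey line their median, and dotted lines 2-fold. The 10 import genes (red) have medians of 0.52 and 0.73, the respiratory chain list 0.03 and 0.15 and the ribosome assembly list 0.98 and 1.38.

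Regulators of mitochondrial gene expression went both ways. Of 14 measured, 9 were above 0 in GFPlow (3 past 2-fold, 1 past 2-fold lower) and 11 in Dox + (3 past 2-fold). Myc, a growth-promoting transcription factor that binds E-boxes, read 8.0 in GFPhigh, 9.46 in GFPlow, 8.81 in Dox - and 11.69 in Dox +, differences of 1.46 and 2.88. Pprc1, a growth-responsive coactivator, read 6.35 in GFPhigh and 7.91 in GFPlow (1.57), and 8.35 in Dox - and 9.0 in Dox + (0.65). The rRNA methyltransferase Tfb1m differed by 1.32 and 0.47, the transcription factor Tfb2m by 0.76 and 1.01, and the helicase Twnk by 0.98 and, with Dox - under the floor, by at least 1.5. In the other direction, Nrf1 differed by -1.06 and -0.06 in the GFP and Dox pairs. Its strongest probe set, 1434627_at, read 6.97 in GFPhigh and 5.92 in GFPlow, not far above the floor. Another, 1424787_a_at, was under the floor in the GFP pair and higher in Dox + by at least 0.35. The coactivator Ppargc1a differed by -0.68 and -0.64, the lowest of the list in the Dox pair. Its other probe sets included 1434099_at, which was past 2-fold lower in both (-1.04 and -1.12), and 1437751_at, at -1.25 in GFPlow and -0.55 in Dox +. The remaining ones fell short of 2-fold in GFPlow, 1456395_at at -0.64 and 1460336_at at -0.21. In the Dox pair 1456395_at gave -0.39 or beyond, and 1460336_at was under the floor.

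Of the genes at or above the floor on all 4 arrays, those with a pair of differences most like that of Timm9 were found by Euclidean distance over the 2 differences among 8568 genes. They were Pla2g5 (distance 0.20; 0.45 and 3.36), Ier3 (0.25; 0.50 and 3.01), Pdcd11 (0.47; 0.84 and 2.83), Epha4 (0.49; 0.72 and 2.76) and Ddx10 (0.66; 0.65 and 2.58). Pdcd11 is a ribosome assembly factor, Pla2g5 a secreted phospholipase and Epha4 an ephrin receptor. With 4 arrays this likeness describes the arrays alone.

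Cell cycle and lineage markers also differed within the pairs. In the GFP pair all 22 measured G2 and mitosis genes were higher in GFPlow with a median of 2.19, and the log2 of their summed level was 12.00 in GFPhigh and 14.21 in GFPlow. In the Dox pair 0 of the same 22 were above 0, the median was -0.79 and the summed level 14.05 in Dox - and 13.37 in Dox +. The members' medians were 0.52 and 0.73. Of 12 colonocyte markers 11 were lower in GFPlow, 5 of them at least 2-fold (Slc9a2, Scnn1a, Cyp2c55 and Slc51b among them). Their summed levels were 17.11 in GFPhigh and 16.44 in GFPlow. In the Dox pair 4 of the 12 were above 0 and 1, Slc9a2, was at least 2-fold lower (-1.11). The summed levels there were 16.69 in Dox - and 16.41 in Dox +. Of 10 goblet cell markers 4 were at least 2-fold higher in GFPlow, Creb3l4 most (3.71), with summed levels of 17.42 and 17.87, and 1, Clca1, at least 2-fold lower in Dox +, with summed levels of 17.70 in Dox - and 17.28 in Dox +. Of 8 enteroendocrine markers measured in the GFP pair 4 were at least 2-fold lower in GFPlow, Gcg most (-1.87), with summed levels of 13.44 and 12.33. Of 10 measured in the Dox pair 9 were at least 2-fold lower in Dox +, Insl5 most (-3.66), and 1, Sct, was higher (1.34), with summed levels of 13.87 in Dox - and 12.06 in Dox +. Of 9 fibroblast genes 2 were measured in the Dox pair, Vim (-1.78) and Pdgfrb (-0.32 or beyond), and the summed levels went from 8.85 to 7.56. The 4 measured of 11 myeloid genes did not share a direction in Dox +. Laptm5 was lower (-1.53), Lyz2 higher (0.71), and Cd14 (-0.02) and Csf1r (-0.08) nearly level. Their median was -0.05, and the summed levels of the myeloid list went from 10.45 to 10.34. The plasma cell gene Jchain was under the floor in Dox + (-2.53 or beyond), the 1 gene of 6 of its list above the floor in Dox -. The part of these cell types in the members' differences was not tested.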

How the data were processed

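Expression was measured on 4 arrays of biotin-labelled cRNA, 1 per group. The authors deposited 1 log2 value per probe set and array. Per the submitters' processing notes they were made with GCRMA. Its version, and whether all arrays were processed at once, were not found in the sources used here. That the scale is log2 follows from the range of values (0.47 to 16.27). A platform annotation gave 1 symbol for 34958 of 45101 probe sets, several for 932 and none for 9211, and only the first were used. Values under 5 were set to 5 within a pair, so a difference with 1 array under it is a bound. Differences were taken within pairs only, with Python 3.11.15, pandas 2.3.3 and statsmodels 0.14.6 (loess, span 0.4), in code tested on simulated data. The members, gene lists, motifs and naming rule were chosen with earlier results of these data known. Of the lists of other import genes and regulators, genes past 2-fold in either pair and the highest and lowest of a list are named, of marker lists up to 4 past 2-fold. Motif shares count windows, and a gene can have several. No protein sequences were used here. Alternatives were floors of 4 and 6, no floor, quantile and loess scaling, the mean of probe sets, dropping _a_at, _s_at and _x_at probe sets, and a 1.5-fold threshold.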

Additional observations from a re-analysis of the deposited data

How the results depend on the processing

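With 1 array per group, arrays could not be left out, and signal over background limits the low probe sets. No paired analysis was possible because each group has 1 array. The same 2 members in the GFP pair (Timm8a1 and Timm50) were at least 2-fold higher with all 3 other floors, both scalings and the mean of probe sets. In the Dox pair the 4 became 3 with quantile or loess scaling, which left out Timm10. Dropping the _a_at, _s_at and _x_at probe sets removed Timm9, Timm13, Timm50 and Tomm40. It left 1 of 6 members past 2-fold in the GFP pair and 2 of 6 in the Dox pair. With these probe sets dropped, 1081 of 7897 measured genes in the GFP pair and 1014 of 7928 in the Dox pair passed in either direction. At 1.5-fold, 5 of 10 members passed in each pair. The same size was passed by 2912 of 9381 measured genes in the GFP pair and 2772 of 9537 in the Dox pair, in either direction. Of the other import genes, 3 passed 2-fold in the GFP pair with a floor of 4 or with no floor, and 1 with probe sets averaged. In the Dox pair 2 passed with a floor of 4 or with no floor, and 0 with quantile scaling or the mean of probe sets. Timm9 ranged from 3.14 to 3.23 in the Dox pair wherever it was measured. Of all 2-fold calls in the Dox pair, 56.4% were higher in Dox +, and 47.3% with quantile scaling.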

Other observations

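Of the other import genes and regulators, some probe sets other than the strongest of a gene read past 2-fold, and these were chosen after their values were seen. Timm17b, the second form of the channel subunit Timm17, read 7.00 in Dox - and 8.79 in Dox + in 1460685_at, a difference of 1.8, while its strongest probe set 1438656_x_at gave -0.29. Timm29, a subunit of the TIM22 complex, gave 1.18 in 1452175_at and 0.06 in its strongest probe set. The matrix protease Clpp gave 1.41 in 1416615_at and 0.52 in its strongest, and the mitochondrial RNA polymerase Polrmt 1.99 in 1452835_a_at and 0.25 in its strongest. In the GFP pair the same probe sets gave 0.64, 0.69, 0.44 and 0.47. Others were lower. Ppargc1a gave -1.12 in Dox + in 1434099_at, and in GFPlow -1.04 in that probe set and -1.25 in 1437751_at. Also lower in GFPlow were Mtch2 in 1438842_at (-2.45 or beyond), the inner membrane protease Yme1l1 in 1437822_at (-1.08 or beyond) and Clpx in 1439342_at (-1.02), and their strongest probe sets gave -0.44, -0.27 and -0.64.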
